A study of Mus musculus with 8 samples.

Results

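The cell's defence against oxidants was described here by 10 genes, fixed by name: the NRF2 targets Nqo1, Hmox1, Gclc, Gclm, Txnrd1 and Srxn1, and the antioxidant enzymes Cat, Sod1, Sod2 and Prdx1. Each symbol was matched to 1 Ensembl identifier, and the rows of that identifier were summed. All 10 were found among the 55487 gene identifiers of the deposited tables, and all 10 were among the 14172 genes tested. RNA was sequenced from epididymal white adipose tissue, a visceral fat depot, taken from 8 obese male C57BL/6 mice. The 4 AKO mice (numbers 3, 8, 9 and 11) carried floxed Slc16a1 on both chromosomes together with AP2-cre, and are labelled Slc16a1 -/-. The 4 WT mice (numbers 2, 3, 4 and 5) carried the same floxed copies without Cre. All 8 had been made obese with a high-fat diet (HFD), and their age was not found in the labels. Slc16a1 encodes MCT1, a membrane transporter of lactate and other monocarboxylates. AP2-cre is driven by the promoter of Fabp4, a fatty acid binding protein gene of fat cells that is known to be active in some macrophages and endothelial cells too. Cre and the intended deletion cannot be told apart in this design.

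NRF2, the product of Nfe2l2, is a transcription factor that KEAP1 holds in the cytoplasm and sends to degradation through a CUL3 ubiquitin ligase. When oxidants or electrophiles modify KEAP1, NRF2 accumulates, pairs with a small MAF protein and binds the antioxidant response element, from which BACH1 otherwise represses genes such as Hmox1. Its targets make glutathione, keep thioredoxin and peroxiredoxin reduced, break down haem and detoxify quinones. Superoxide dismutases turn superoxide into hydrogen peroxide, and catalase, glutathione peroxidases and peroxiredoxins remove the peroxide.

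Values are TPM, transcripts per 1000000 after scaling by transcript length, as deposited by the authors. Read depth cannot be had from TPM, so it is unknown for every library and no counting error is given. Rows above 0 numbered 66578 to 70720 in AKO libraries and 63143 to 66466 in WT libraries. Mitochondrial genes held 6.69% to 8.40% of TPM in AKO libraries and 7.54% to 8.99% in WT libraries. All 12 adipocyte markers were tested and their TPM summed to 33130 to 44600 in AKO and 32220 to 46110 in WT, with Fabp4 the highest of them. Markers of epididymal epithelium summed to at most 1.09 TPM in AKO, and to 0.23, 4.51, 7.73 and 0.34 TPM in WT mice 2, 3, 4 and 5. Summed Slc16a1 averaged 24.0 ± 2.54 TPM in AKO and 21.3 ± 5.78 TPM in WT (SD, n = 4 each), so the gene total gave no check of the genotype labels, and the groups are called by their labels. Its 2 rows went opposite ways: row 1 had 4.51 to 8.80 TPM in AKO and 10.8 to 17.7 TPM in WT. Row 2, with 53.2% of the total, had 13.6 to 22.5 TPM in AKO, and in WT 12.5 TPM in mouse 2, 14.4 TPM in mouse 3 and a listed value of 0 in mice 4 and 5. WT mouse 4 stood apart from the other 7 mice with the lowest macrophage marker sum, 2291 TPM against 3523 to 6490 TPM.

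The sequences below are shown because the antioxidant response element is what makes several of these genes a group. RefSeq promoter windows (build GRCm38.p6, 250 bases before to 50 bases after each start) were found for 8 of the 10 genes, in 10 windows. Hmox1 and Gclc were not matched. Each window was searched on both strands for the core of the element as TGACNNNGC and in its other spelling, TGAGNNNGC. The first spelling was in 12.4% and the second in 17.6% of all 32851 windows, and either was in 27.8%. Counted by gene, 30.8% of genes had either spelling in at least 1 of their windows. Of the 8 genes, 5 held a match (Gclm, Txnrd1, Srxn1, Sod1 and Prdx1), each with TGACNNNGC, and 2 of the 3 Txnrd1 windows held none. No match lay in the windows of Nqo1, Cat and Sod2, and bases outside the windows were not searched. Matches in capitals below do not overlap each other, and a core on the opposite strand reads as its reverse complement. Srxn1, Txnrd1 and Prdx1 are printed because their levels went together across mice, and Sod1 because its levels went the other way.
Srxn1, chr2:152105274-152105573 (+ strand): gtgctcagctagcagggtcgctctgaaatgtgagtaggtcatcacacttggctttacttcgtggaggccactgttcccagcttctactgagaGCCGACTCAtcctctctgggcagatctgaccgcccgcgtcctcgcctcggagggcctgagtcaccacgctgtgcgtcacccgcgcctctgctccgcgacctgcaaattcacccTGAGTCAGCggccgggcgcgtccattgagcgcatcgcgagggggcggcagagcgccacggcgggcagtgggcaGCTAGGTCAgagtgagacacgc
Txnrd1, chr10:82858956-82859255 (+ strand): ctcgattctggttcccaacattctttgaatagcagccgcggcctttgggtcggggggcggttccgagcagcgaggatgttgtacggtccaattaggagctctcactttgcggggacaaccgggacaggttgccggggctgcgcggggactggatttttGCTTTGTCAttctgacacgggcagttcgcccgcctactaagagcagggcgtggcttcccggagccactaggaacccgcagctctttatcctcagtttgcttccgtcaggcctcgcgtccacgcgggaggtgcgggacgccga
Prdx1, chr4:116685349-116685648 (+ strand): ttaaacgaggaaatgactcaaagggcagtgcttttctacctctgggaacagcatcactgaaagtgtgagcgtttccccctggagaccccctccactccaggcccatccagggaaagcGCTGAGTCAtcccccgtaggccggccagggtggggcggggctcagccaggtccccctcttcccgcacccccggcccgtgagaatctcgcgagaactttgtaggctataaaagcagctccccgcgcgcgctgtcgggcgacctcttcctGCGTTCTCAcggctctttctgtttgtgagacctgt
Sod1, chr16:90220512-90220811 (+ strand): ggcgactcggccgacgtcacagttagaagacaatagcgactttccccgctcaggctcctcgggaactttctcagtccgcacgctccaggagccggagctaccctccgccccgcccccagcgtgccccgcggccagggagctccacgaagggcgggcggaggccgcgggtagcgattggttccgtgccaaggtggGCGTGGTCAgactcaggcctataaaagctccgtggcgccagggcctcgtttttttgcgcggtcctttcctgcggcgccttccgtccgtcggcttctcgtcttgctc
The Prdx1 window holds TGACTCAGC on the opposite strand at positions 118 to 126, and the Srxn1 window holds TGAGTCAGC as printed at positions 206 to 214. A match describes the letters of the window only. Binding was not measured.

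None of the 10 genes passed the test between AKO and WT fat. In limma, fitted to log2(TPM + 1) over all 14172 tested genes with Benjamini-Hochberg adjustment, 0 of 10 had an FDR below 0.05, and 0 of 10 had an unadjusted p below 0.05. Over all genes tested, 0.0282% had an FDR below 0.05 (0.0212% higher and 0.00706% lower in AKO). These were 4 genes in all (1 without AKO mouse 3, and 2 without AKO mouse 11 or without WT mouse 2). An unadjusted p below 0.05 was reached by 4.75% of genes (2.58% higher and 2.17% lower in AKO). The lowest FDR among the 10 was 0.831. The groups overlapped for all 10. Of all tested genes, 2.44% had groups that did not overlap (1.11% with AKO above and 1.33% with AKO below). A count of 0 among 10 genes does not set them apart from that share. Log2 differences, taken as AKO minus WT after adding 1 TPM, ran from -0.22 to 0.53. Of the 10, 6 were positive and 4 negative, beside 7621 positive and 6551 negative of all 14172 genes tested. The median was 0.02, beside a median of 0.02 over all genes tested.

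**Figure D1:**
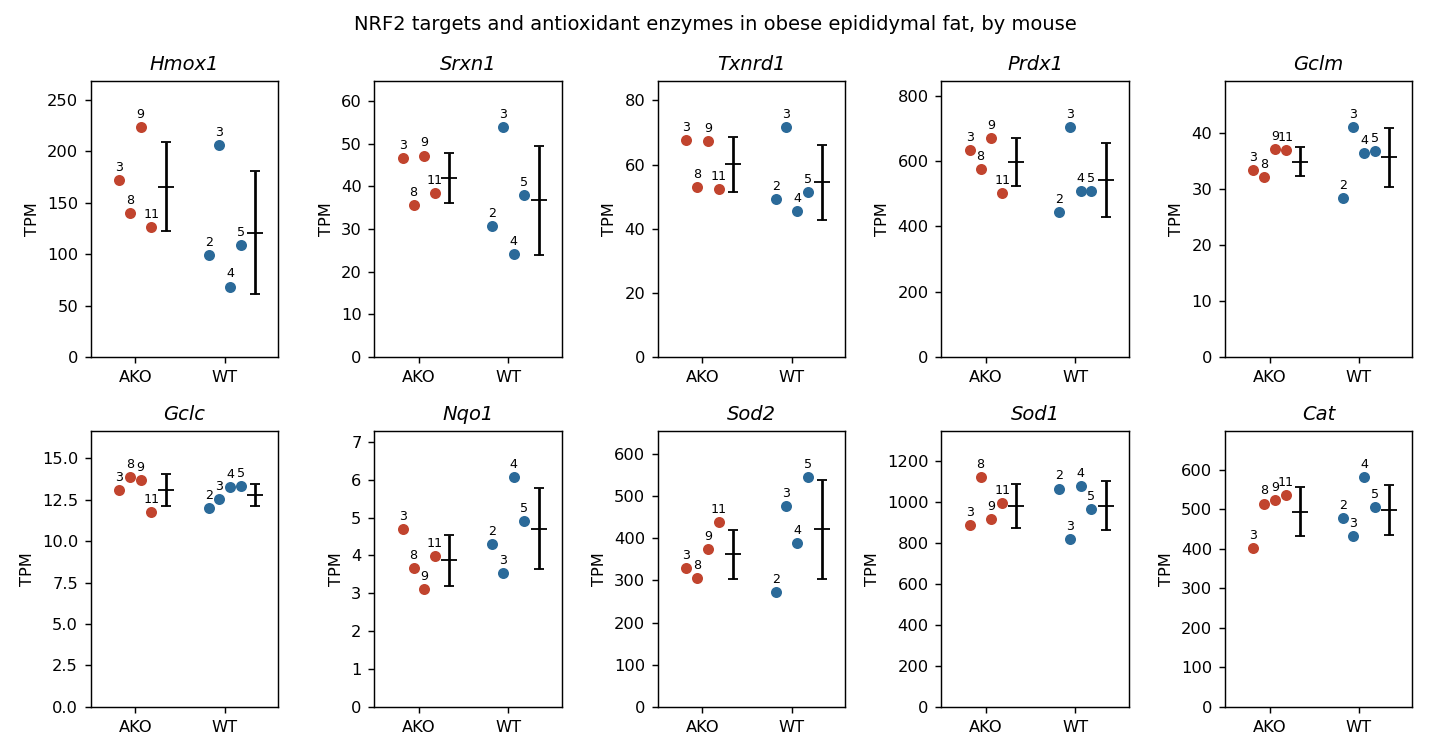
TPM of the 10 genes in each mouse, with AKO in red and WT in blue, mouse numbers above the points, and black bars for the mean and SD (n = 4 each). The groups overlap in every panel, and Hmox1 has the widest range relative to its lowest value, 68.7 to 224 TPM.

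Per length, the dismutase and peroxide enzymes were the abundant transcripts of the 10. The median over the 8 mice was 978 TPM for Sod1, 542 TPM for Prdx1, 511 TPM for Cat and 381 TPM for Sod2. Hmox1 followed with 133 TPM, then Txnrd1 with 52.7, Srxn1 with 38.2, Gclm with 36.5, Gclc with 13.2 and Nqo1 with 4.14 TPM. The ranges of Prdx1, Cat and Sod2 overlapped each other across mice, as did those of Hmox1 and Txnrd1. Srxn1 overlapped with its neighbours Txnrd1 and Gclm. Gclc and Nqo1 lay apart from each other and from the rest in all 8 mice. The highest mouse exceeded the lowest 3.26-fold for Hmox1, 2.23-fold for Srxn1, 2.00-fold for Sod2 and 1.95-fold for Nqo1. For Gclc that ratio was 1.18.

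Hmox1 (ENSMUSG00000005413, chromosome 8) encodes haem oxygenase 1, which splits haem into biliverdin, iron and carbon monoxide and is abundant in macrophages. It had 172, 141, 224 and 126 TPM in AKO mice 3, 8, 9 and 11, against 99.7, 206, 68.7 and 109 TPM in WT mice 2, 3, 4 and 5. AKO mice filled 4 of the 5 highest places, and WT mouse 3 stood second among the 8. The means were 166 ± 43.1 TPM in AKO and 121 ± 59.5 TPM in WT (SD, n = 4 each). The log2 difference was 0.53 (95% interval -0.19 to 1.26, limma FDR = 0.831, two-sided exact permutation p = 0.200). It was 0.83 without WT mouse 3 and 0.30 without WT mouse 4, and passed the threshold in neither case (FDR = 0.332 and 0.997 in limma).

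Srxn1, Txnrd1 and Prdx1 act in one chain: thioredoxin reductase 1 keeps thioredoxin reduced, thioredoxin recycles peroxiredoxin 1 after it has removed peroxide, and sulfiredoxin rescues peroxiredoxin that has been overoxidised. Srxn1 (ENSMUSG00000032802, chromosome 2) had 46.5, 35.7, 47.2 and 38.4 TPM in AKO mice 3, 8, 9 and 11, against 30.8, 53.9, 24.2 and 37.9 TPM in WT mice 2, 3, 4 and 5. WT mice held both the highest and the lowest value. The log2 difference was 0.24 (95% interval -0.27 to 0.75, limma FDR = 0.855). Txnrd1 (ENSMUSG00000020250, chromosome 10) had 67.5, 53.0, 67.2 and 52.5 TPM in the AKO mice in the same order, against 49.3, 71.7, 45.45 and 51.3 TPM in the WT mice. WT mouse 3 again stood highest and WT mouse 4 lowest. Its log2 difference was 0.15 (95% interval -0.20 to 0.51, limma FDR = 0.868). Prdx1 (ENSMUSG00000028691, chromosome 4) had 635, 576, 671 and 504 TPM in AKO, against 444, 704, 509 and 509 TPM in WT. WT mouse 3 was highest here too, but the lowest was WT mouse 2. Its log2 difference was 0.15 (95% interval -0.20 to 0.50, limma FDR = 0.864). The sizes of these differences moved with single WT mice. Without WT mouse 3 they were 0.44 for Srxn1, 0.29 for Txnrd1 and 0.28 for Prdx1. Without WT mouse 4 they were 0.065 for Srxn1 and 0.073 for Txnrd1, and Prdx1 was 0.0635 without WT mouse 2.

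Gclc and Gclm encode the catalytic and the modifier subunit of glutamate-cysteine ligase, the rate-limiting enzyme of glutathione synthesis. Gclc (ENSMUSG00000032350, chromosome 9) had 13.1, 13.9, 13.7 and 11.7 TPM in AKO, against 11.97, 12.5, 13.3 and 13.3 TPM in WT. It was the steadiest of the 10, with a log2 difference of 0.03 (95% interval -0.16 to 0.22, limma FDR = 0.946). Gclm (ENSMUSG00000028124, chromosome 3) had 33.3, 32.1, 37.1 and 37.0 TPM in AKO, against 28.4, 41.0, 36.3 and 36.8 TPM in WT. The AKO values lay inside the WT range, and the log2 difference was -0.02 (95% interval -0.28 to 0.24, limma FDR = 0.975). Its sign turned when AKO mouse 3, AKO mouse 8 or WT mouse 3 was left out, with 0.05 in the last case. The 2 subunits did not follow the same order of mice: WT mouse 3 had the highest Gclm and the sixth highest Gclc.

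Nqo1 (ENSMUSG00000003849, chromosome 8) encodes the quinone reductase that is often used as a readout of NRF2. It was the scarcest of the 10, with 4.71, 3.67, 3.12 and 3.98 TPM in AKO mice 3, 8, 9 and 11, against 4.30, 3.55, 6.08 and 4.90 TPM in WT mice 2, 3, 4 and 5. The lowest value belonged to AKO mouse 9, which had the highest Hmox1, and the highest to WT mouse 4, which had the lowest Hmox1. The means were 3.87 ± 0.663 TPM in AKO and 4.71 ± 1.07 TPM in WT (SD, n = 4 each), a log2 difference of -0.22 (95% interval -0.59 to 0.15, limma FDR = 0.831, two-sided exact permutation p = 0.229). The difference was -0.11 without WT mouse 4. At this level the added 1 TPM understates a change.

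Sod1, the copper-zinc dismutase of the cytosol, and Cat, the peroxisomal catalase, had nearly equal means in both groups. Sod1 (ENSMUSG00000022982, chromosome 16) had 886, 1123, 918 and 994 TPM in AKO, against 1065, 818, 1078 and 963 TPM in WT. Means were 980 ± 105 TPM in AKO and 981 ± 120 TPM in WT (SD, n = 4 each). The log2 difference was 0.00 (95% interval -0.27 to 0.27, limma FDR = 0.9995), and its sign turned under 3 alternatives that kept all mice. Cat (ENSMUSG00000027187, chromosome 2) had 401, 515, 523 and 537 TPM in AKO, against 478, 431, 583 and 506 TPM in WT. AKO mouse 3 lay well below the other 3 AKO mice. The log2 difference was -0.02 (95% interval -0.30 to 0.27, limma FDR = 0.983), 0.08 without AKO mouse 3 and 0.06 without WT mouse 4.

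Sod2, the manganese dismutase of mitochondria, followed neither pattern. Sod2 (ENSMUSG00000006818, chromosome 17) had 329, 306, 375 and 437 TPM in AKO, against 273, 476, 388 and 545 TPM in WT. The WT range enclosed the AKO range. Means were 362 ± 58.1 TPM in AKO and 421 ± 118 TPM in WT (SD, n = 4 each), a log2 difference of -0.18 (95% interval -0.67 to 0.30, limma FDR = 0.880). It was -0.38 without WT mouse 2 and -0.04 without WT mouse 5.

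**Figure D2:**
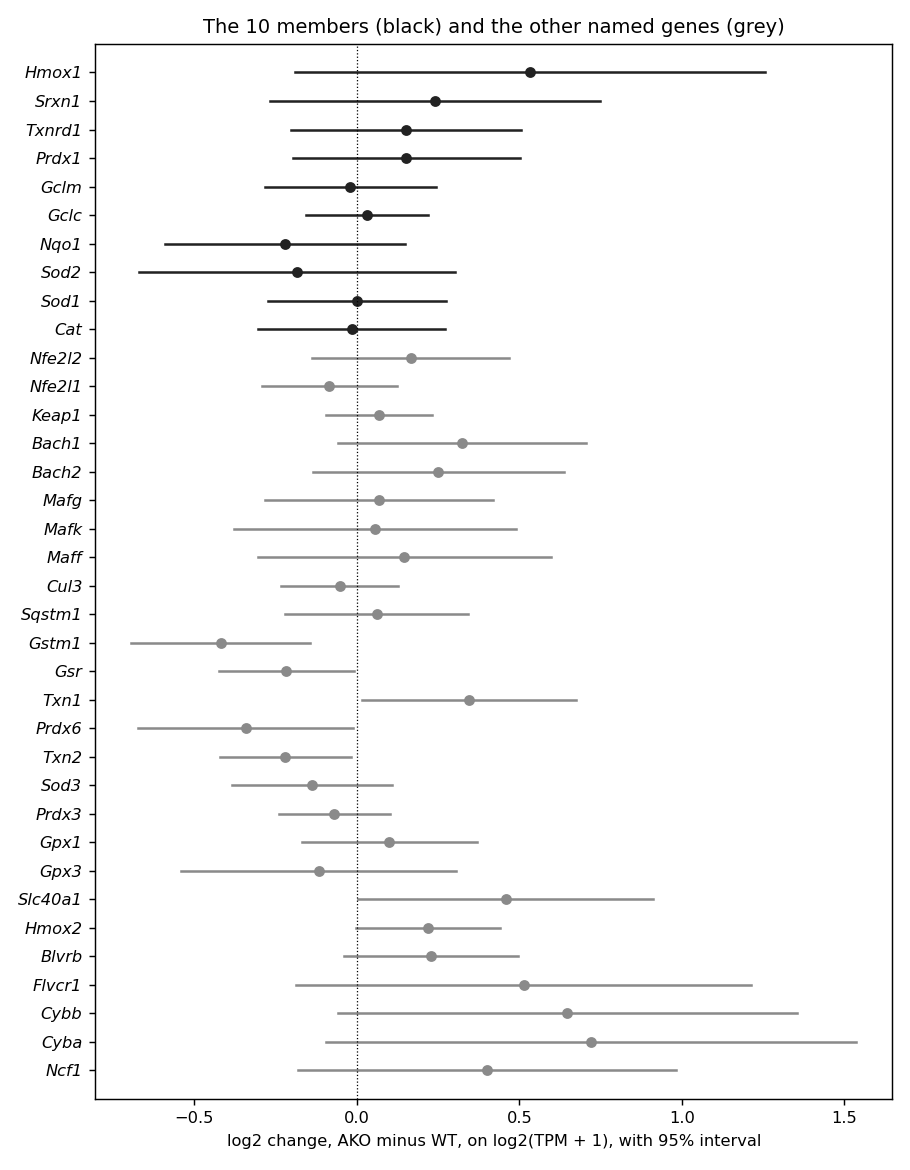
Log2 change (AKO minus WT) with its 95% interval for the 10 genes in black and the other named genes in grey. All 10 black intervals cross 0, from -0.22 for Nqo1 to 0.53 for Hmox1.

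The 10 genes divided by which mice were high. AKO mouse 3, AKO mouse 9 and WT mouse 3 were the 3 highest for Hmox1, Srxn1, Txnrd1 and Prdx1, 4 of the 10. This set of 3 mice was picked after the values were seen. The same 3 mice were highest for 17.8% of all tested genes, 2518 in number. They were also highest for 10 of 12 macrophage markers, for 8 of 10 markers of lipid-associated macrophages, for 4 of 8 fibroblast and progenitor markers, for 4 of 5 mast cell markers and for 0 of 12 adipocyte markers. The macrophage marker sum ranged from 3697 to 6490 TPM in AKO mice and from 2291 to 5360 TPM in WT mice. That of lipid-associated macrophages, the cells that surround dying fat cells in obesity, ranged from 4232 to 8158 TPM in AKO mice and from 1332 to 6782 TPM in WT mice. All 12 macrophage markers and all 10 of the lipid-associated list had positive log2 differences, with medians of 0.42 and 1.17. In limma 0 of them passed, and 1 of 12 and 3 of 10 had an unadjusted p below 0.05. Of all 14172 tested genes, 7621 were positive, and 4.75% had an unadjusted p below 0.05 in limma. All 8 fibroblast and progenitor markers were positive too (median 0.32), with sums of 1985 to 2846 TPM in AKO mice and 1601 to 2675 TPM in WT mice. That list holds Col1a1 and Col3a1, the collagen genes most like Srxn1 across mice. All 5 mast cell markers were positive (median 0.73), with sums of 33.9 to 92.1 TPM in AKO mice and 21.8 to 51.8 TPM in WT mice. In each of these lists 0 passed and 1 had an unadjusted p below 0.05 in limma. The part of these cells in the levels of Hmox1, Srxn1, Txnrd1 and Prdx1 was not tested. In bulk tissue, more cells of a type and more RNA per cell cannot be told apart.

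**Figure D3:**
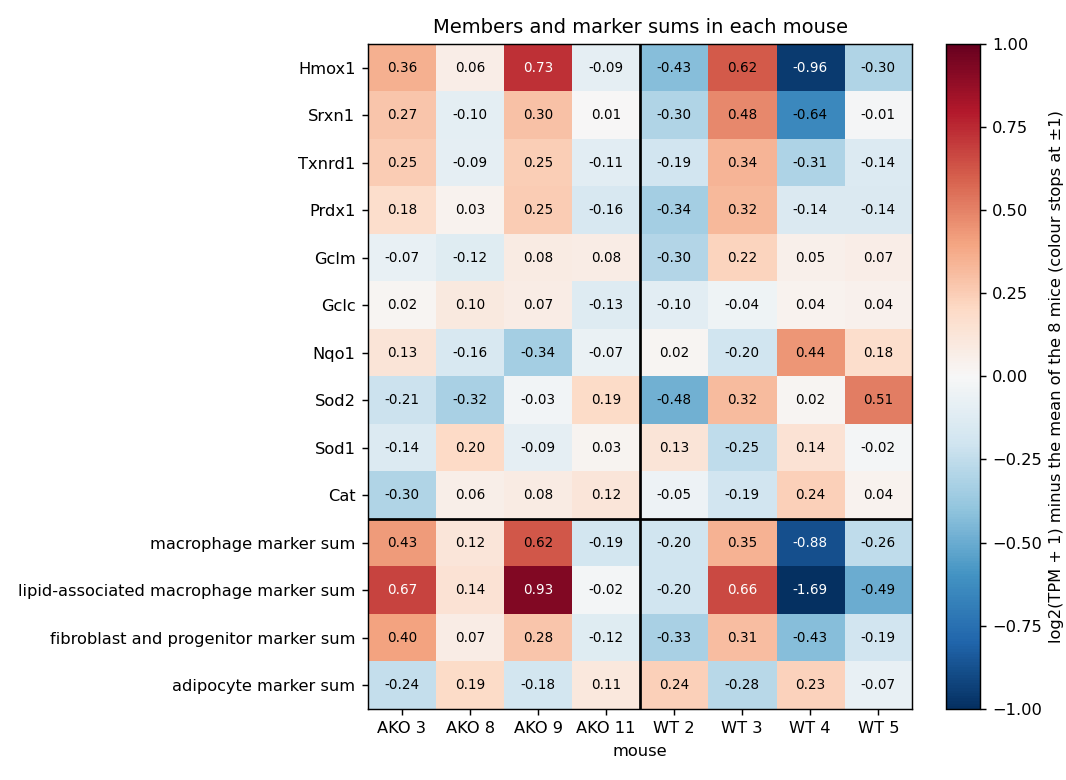
Log2(TPM + 1) of each gene, and of marker sums, minus its mean over the 8 mice, with AKO mice left of the line and WT mice right. Hmox1 runs from 0.73 in AKO mouse 9 to -0.96 in WT mouse 4, the same 2 mice that hold the ends of the macrophage sum (0.62 and -0.88).

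Sod1 had other mice on top. The 3 highest for Cat were WT mouse 4, AKO mouse 11 and AKO mouse 9, the last also among the 3 highest for Hmox1. AKO mouse 8, WT mouse 4, WT mouse 2 and AKO mouse 11 had the 4 highest Sod1 values, and the same 4 mice had the 4 highest adipocyte marker sums, from 42160 to 46110 TPM. WT mouse 3 had the lowest Sod1 and the lowest adipocyte sum, 32220 TPM. The sum of 6 endothelial markers had the same 4 highest mice, from 592 to 702 TPM, and WT mouse 3 lowest, 363 TPM. Adipocyte markers were negative for 11 of 12 genes between AKO and WT (median -0.17), as were 6551 of all 14172 tested genes. Of the 12, 0 passed and 1 had an unadjusted p below 0.05 in limma. The part of adipocytes or endothelial cells in the level of Sod1 was not tested. TPM add to a fixed total in each library.

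**Figure D4:**
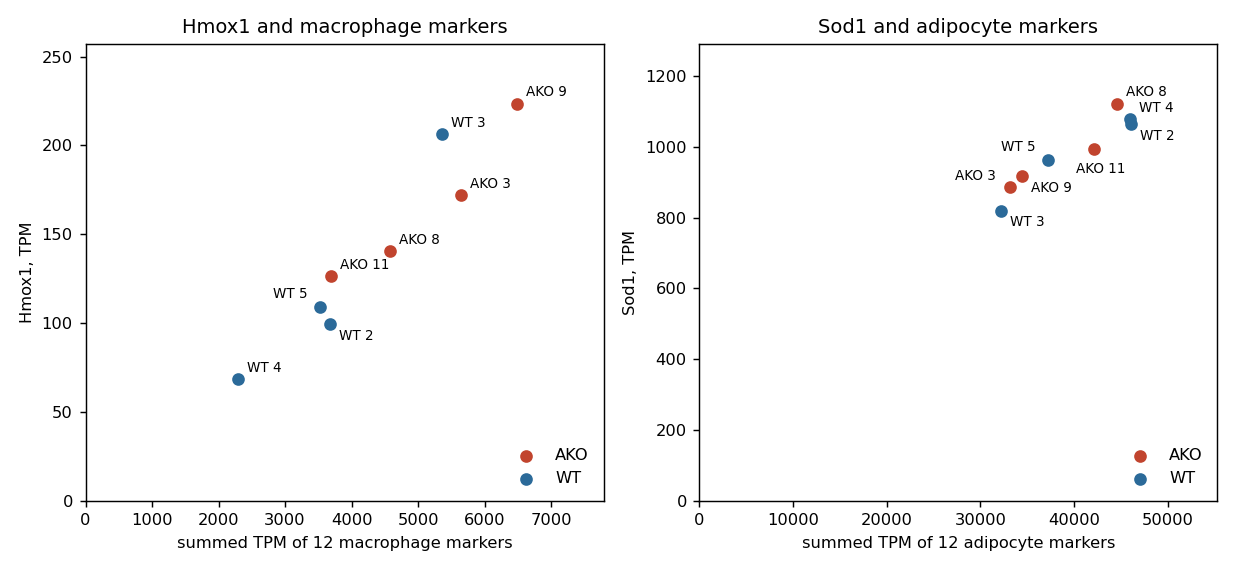
Hmox1 against the summed TPM of 12 macrophage markers (left) and Sod1 against that of 12 adipocyte markers (right), 1 point per mouse, AKO red and WT blue. WT mouse 4 and AKO mouse 9 hold the lowest and highest macrophage sums, 2291 and 6490 TPM, and the lowest and highest Hmox1, 68.7 and 224 TPM.

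The genes whose levels were most like each of the 10 over the 8 mice were sought among 8253 named genes with a mean of at least 10 TPM, by Pearson's r of log2(TPM + 1). These likenesses are descriptions over mice that share library totals, chosen as the highest of many. Hmox1 was most like Ckb (r = 0.996), a creatine kinase gene, followed by Wwp2 (0.995), a ubiquitin ligase gene, and Pdxk (0.992), the pyridoxal kinase gene. Ckb had 302, 211, 426 and 185 TPM in AKO mice 3, 8, 9 and 11, against 143, 347, 87.0 and 148 TPM in WT mice 2, 3, 4 and 5, the same order of mice as Hmox1. Txnrd1 was most like Lasp1 (0.992) and Actr2 (0.991), genes of the actin skeleton, and Ptpn7 (0.992), which encodes a leukocyte phosphatase. Srxn1 was most like Calr (0.992), which encodes the chaperone calreticulin, and the collagen genes Col3a1 and Col1a1 (0.988 each). Prdx1 was most like Ccnd1 (0.987), the cyclin D1 gene, Hnrnpu (0.970) and Fgl2 (0.969).

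The other genes had different company. Sod2 was most like Tpi1 (0.979), the glycolytic triose phosphate isomerase gene, Prmt5 (0.977) and Cyb5b (0.973), a cytochrome b5 of the mitochondrial outer membrane. Gclm was most like Angptl8 (0.970), an insulin-regulated inhibitor of lipoprotein lipase, Hmgcs1 (0.965), an enzyme of cholesterol synthesis, and Degs1 (0.961), a dihydroceramide desaturase. Angptl8 had 12.1, 8.34, 14.7 and 13.4 TPM in AKO mice, against 4.29, 20.1, 12.9 and 15.0 TPM in WT mice, so WT mouse 3 was highest and WT mouse 2 lowest, as for Gclm. Sod1 was most like Higd1b (0.993) and the junction genes Jam3 (0.984) and Tjp1 (0.977). Cat was most like Rpp25l (0.963), Trak1 and Aspa (0.959 each), the last an aspartoacylase gene. Nqo1 was most like Ctnnal1 (0.962), Btbd6 (0.960) and Kdsr (0.951), and Gclc was most like Eif2ak1 (0.940), the haem-regulated kinase gene, Gnb4 (0.916) and Esyt1 (0.915).

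The control of NRF2 showed no call either. Of 10 genes of this list, 0 passed in limma, 0 had an unadjusted p below 0.05, 8 were positive and 2 negative, and the median log2 difference was 0.07. Nfe2l2, which encodes NRF2 itself, had 79.7, 77.9, 90.5 and 63.6 TPM in AKO mice 3, 8, 9 and 11, against 70.6, 82.1, 58.2 and 66.5 TPM in WT mice 2, 3, 4 and 5. The mice highest for Hmox1 were again highest, and the log2 difference was 0.17 (95% interval -0.14 to 0.47, limma FDR = 0.837). Bach1, the repressor that competes with NRF2, averaged 18.2 ± 2.80 TPM in AKO and 14.5 ± 3.36 TPM in WT (SD, n = 4 each), a log2 difference of 0.32 (limma FDR = 0.831). Keap1 averaged 34.1 ± 1.63 TPM in AKO and 32.4 ± 1.80 TPM in WT, with a log2 difference of 0.07, or -0.02 when its highest row stood for the gene. Differences were 0.25 for Bach2, -0.08 for Nfe2l1, an NRF2 relative that drives proteasome genes, -0.05 for Cul3 and 0.06 for Sqstm1, the autophagy receptor that binds KEAP1. The small MAF genes Mafg, Mafk and Maff had differences of 0.07, 0.05 and 0.15. With its highest row standing for the gene, Nfe2l1 was -0.43 (limma unadjusted p = 0.00285, FDR = 0.835). Bach2 was 0.11 without AKO mouse 3, and Nfe2l2 was 0.09 without AKO mouse 9 or WT mouse 4. The signs of Cul3, Sqstm1 and the small MAF genes turned without single mice.

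Other NRF2 targets were mostly on the negative side. Of 19 genes listed, 18 were tested, 5 positive and 13 negative, with a median of -0.06. Of the 18, 0 passed and 4 had an unadjusted p below 0.05 in limma, against 4.75% of all tested genes. The 19th, Slc7a11, the cystine carrier gene, did not reach the filter, with 0.30 to 0.61 TPM in AKO and 0.16 to 0.46 TPM in WT. Gstm1, which encodes a mu-class enzyme that conjugates glutathione to electrophiles, had 960, 958, 824 and 861 TPM in AKO mice 3, 8, 9 and 11, against 1456, 1182, 1020 and 1192 TPM in WT mice 2, 3, 4 and 5. The groups did not overlap, AKO below, as for 1.33% of all tested genes. The log2 difference was -0.42 (95% interval -0.69 to -0.15, limma unadjusted p = 0.00743, FDR = 0.831). Mu-class genes are close copies of each other, so single-gene values are uncertain. Of the 4 genes that passed over all genes, 1 is another of them, Gstm6, named after its values were seen, with 3.24 ± 0.486 TPM in AKO and 11.5 ± 1.66 TPM in WT (SD, n = 4 each, limma FDR = 0.00824).

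Genes that recycle or use glutathione and thioredoxin lay on both sides of 0. In this list 21 of 21 genes were tested, 9 positive and 12 negative (median -0.01). Of the 21, 0 passed and 4 had an unadjusted p below 0.05 in limma, against 4.75% of all tested genes. Txn1, the cytosolic thioredoxin gene, averaged 253 ± 35.1 TPM in AKO and 199.8 ± 34.9 TPM in WT. Its log2 difference was 0.35 (limma unadjusted p = 0.0422, FDR = 0.831, two-sided exact permutation p = 0.0857). Txn2, the mitochondrial one, averaged 117 ± 7.65 TPM in AKO and 137 ± 13.4 TPM in WT, a difference of -0.22 (limma unadjusted p = 0.0352, FDR = 0.831, two-sided exact permutation p = 0.0857). Prdx6, the peroxiredoxin that uses glutathione, averaged 256 ± 39.1 TPM in AKO and 326 ± 55.0 TPM in WT, with a difference of -0.34, and -0.19 when its highest row stood for the gene. Gsr, the glutathione reductase gene, averaged 22.8 ± 1.42 TPM in AKO and 26.7 ± 2.77 TPM in WT, with a difference of -0.22, and 0.23 when its highest row stood for the gene (all SD, n = 4 each). All these groups overlapped, and Gsr, Txn1 and Prdx6 belong to the preceding list too.

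A shorter list held 6 genes of superoxide and peroxide removal, of which Gpx1, Gpx3, Prdx3 and Prdx5 belong to the preceding list too. All 6 were tested, and 1 was positive and 5 negative (median -0.04), with 0 passing and 0 at an unadjusted p below 0.05 in limma. Sod3, the extracellular dismutase gene, averaged 301 ± 11.2 TPM in AKO and 333 ± 51.3 TPM in WT (log2 difference -0.14), and Prdx3, the mitochondrial peroxiredoxin gene, averaged 109.6 ± 4.90 TPM in AKO and 115 ± 8.66 TPM in WT (-0.07, all SD, n = 4 each). Gpx1 and Gpx3, the cytosolic and the secreted glutathione peroxidase genes, had log2 differences of 0.10 and -0.12.

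Haem handling and the superoxide-making NADPH oxidase lay on the positive side, without a call. Of 10 haem and iron genes, 9 were positive and 1 negative (median 0.19), beside 7621 positive and 6551 negative of all 14172 tested genes. Of the 10, 0 passed and 1 had an unadjusted p below 0.05 in limma. That gene was Slc40a1, which encodes the iron exporter ferroportin. Slc40a1 had 7.14, 10.5, 8.71 and 5.92 TPM in AKO mice 3, 8, 9 and 11. In WT mice 2, 3, 4 and 5 it had 7.16, 5.65, 5.67 and 3.87 TPM. Its log2 difference was 0.46 (limma unadjusted p = 0.0482, FDR = 0.831, two-sided exact permutation p = 0.0857). Flvcr1, long described as a haem exporter gene, had a log2 difference of 0.51. Blvrb, a biliverdin reductase gene, had 0.23, and Hmox2, the constitutive haem oxygenase gene, 0.22. The 1 negative gene was Cd163 (log2 difference -0.21, limma FDR = 0.831). All 7 genes of NADPH oxidase and its partners were positive (median 0.40), with 0 passing and 0 at an unadjusted p below 0.05 in limma. Cybb, the catalytic subunit of phagocytes, had 73.5, 51.6, 87.1 and 46.6 TPM in AKO mice, against 40.1, 69.0, 24.8 and 35.7 TPM in WT mice (log2 difference 0.65, limma FDR = 0.831). Differences of its partners were 0.72 for Cyba and 0.40 for Ncf1. Without WT mouse 4 the differences were 0.43 for Cybb, 0.38 for Cyba, 0.19 for Ncf1, 0.26 for Flvcr1, 0.15 for Blvrb and 0.14 for Hmox2. For 6 of the 7 genes of NADPH oxidase and its partners the 3 highest mice were AKO 3, AKO 9 and WT 3. These mice had the 3 highest macrophage sums. The same 3 mice were highest for 3 of the 10 haem and iron genes. The part of macrophages in the levels of both lists was not tested. The 65 tested genes of all these lists outside the 10, each counted once, held 37 positive and 28 negative (median 0.05). Of these 65, 6 had an unadjusted p below 0.05 in limma, against 4.75% of all tested genes.

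**Figure D5:**
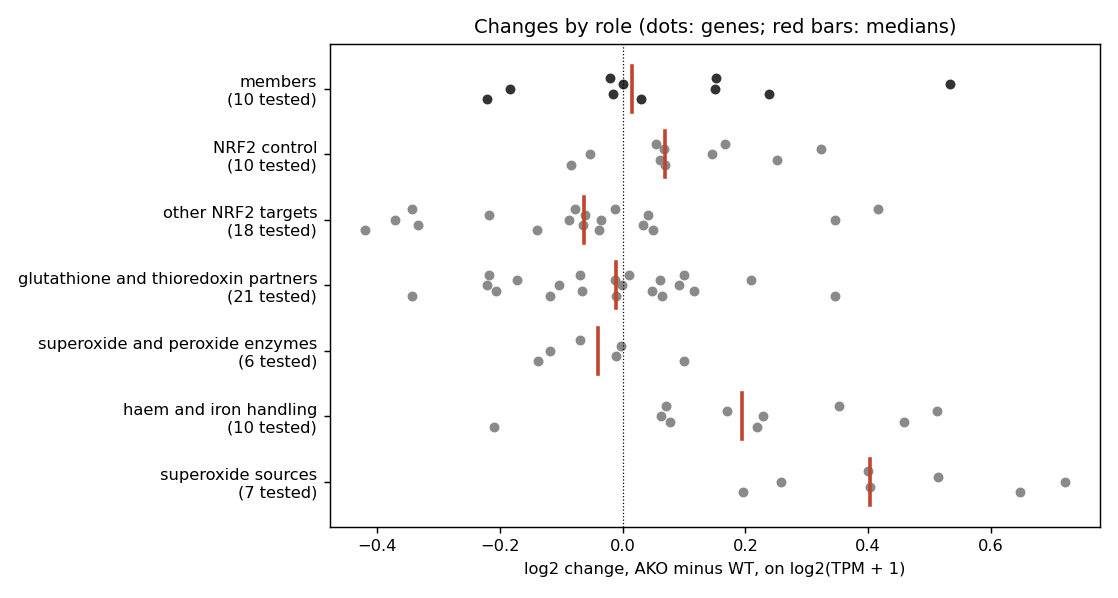
Log2 change (AKO minus WT) of every tested gene by role, 1 dot per gene, with red bars for medians. Medians run from -0.06 for other NRF2 targets to 0.40 for superoxide sources, and the 10 genes at the top have a median of 0.02.

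The tables give several rows per gene, so the division of each total was examined. A single row held nearly all of the total for Hmox1 (99.8%), Gclc, Cat and Sod1, and Nqo1 had 1 row. Prdx1 was split almost evenly, 48.1% in row 4 and 49.3% in row 5. Row 4 averaged 295 ± 39.5 TPM in AKO and 252 ± 39.8 TPM in WT, and row 5 averaged 287 ± 35.5 TPM in AKO and 274 ± 75.0 TPM in WT (SD, n = 4 each). Sod2 had 68.8% in row 4 and 23.6% in row 7, and both had the same sign as the gene (-0.17 and -0.25 on the log2 scale). Gclm had 57.5% in row 6, 24.0% in row 1 and 16.6% in row 3, with log2 differences of -0.11, 0.18 and -0.22 in that order. Txnrd1 had 40.1%, 33.0% and 18.2% in rows 1, 8 and 10, with differences of 0.07, 0.18 and 0.47, and 5.19% in row 6, with -0.52. Row 10 of Txnrd1 had 12.4, 11.6, 13.7 and 11.1 TPM in AKO mice 3, 8, 9 and 11, against 9.82, 11.1, 6.92 and 6.91 TPM in WT mice 2, 3, 4 and 5. AKO mouse 11 and WT mouse 3 met at 11.08 TPM (two-sided exact permutation p = 0.0571, where 0.0286 is the smallest these 8 mice allow). The tables do not say which transcript a row stands for. Of the Sod1 transcript, 72.5% is shared at 95% identity or more with 1 other GENCODE M21 gene, which held at most 0.80 TPM in any mouse. Of the Prdx1 transcript 26.02% is shared with 2 genes, both listed at 0 TPM, and of the Sod2 transcript 6.16% with 19 genes that summed to 677 to 801 TPM.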

How the data were processed

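RNA from epididymal fat of 4 AKO and 4 WT mice was sequenced after Trizol extraction and TruSeq library preparation, per the labels' protocols. The authors deposited TPM, 152298 rows per library in steps of 0.01, summing to 1000000 within rounding. HISAT2, DESeq2 and build mm9 appear in the submitters' processing notes, and their roles are not stated there. No source used here names the quantifier or the annotation. Rows were summed per Ensembl identifier, and 401 rows without a gene (0.605% to 0.943% of TPM) were left out. Symbols came from GENCODE M21 (55141 of 55487 identifiers matched) and chromosomes from RefSeq GRCm38.p6. No library pair was identical (0 pairs).

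The fit took genes that reached 1 TPM in 4 or more libraries and was made with limma 3.58.1 (R 4.3.3, mean-variance trend) on log2(TPM + 1), with Benjamini-Hochberg adjustment over 14172 genes and a threshold of 0.05. The fit was tested on simulated data. Single values were compared by two-sided exact permutation over 70 arrangements. Near copies were sought with blastn 2.17.0 (at least 95% identity over 100 bases). Each library is labelled with its own mouse, and p-values measure the spread between these mice only.

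The members and lists were chosen with earlier results of these data known. Named are the 10 members, the 10 genes of NRF2 control, up to 4 genes of each other list with the smallest p, Slc16a1, and the 3 genes most like each member. The values of 1 gene that this rule names are not reported here. Slc7a11, Cd163, Gstm6 and single rows were named after their values were seen. So were AKO mouse 3, AKO mouse 9 and WT mouse 3 as a set of 3 mice. As alternatives, each mouse was left out in turn, sample quality weights or a robust spread were used, mitochondrial genes were dropped, libraries were scaled by median ratio, the highest row stood for its gene, and the filter was lifted or the pseudocount set to 0.1.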

Additional observations from a re-analysis of the deposited data

Results flagged for a closer look

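A single mouse stood far from the other 3 of its group for 5 of 102 sets of 4 values checked, where chance alone flags about 1 in 20. Cat was 401 TPM in AKO mouse 3, against 515 to 537 TPM in the other AKO mice. Bach2 was 2.13 TPM in AKO mouse 3, against 1.01 to 1.19 TPM. Mafk was 31.3 TPM in AKO mouse 8, against 25.4 to 26.4 TPM. The T cell marker sum was 26.1 TPM in AKO mouse 8, against 13.3 to 14.1 TPM. The sum of epididymal epithelium markers was 1.09 TPM in AKO mouse 11, against 0.30 to 0.41 TPM. No WT mouse was flagged for this sum, though it was 4.51 and 7.73 TPM in mice 3 and 4, against 0.23 and 0.34 TPM in mice 2 and 5.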

How the results depend on the processing

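No member passed an FDR of 0.05 in limma under any of the 15 alternatives. The count at an unadjusted p below 0.05 was 0 of 10, except 1 with sample quality weights (Hmox1), where 1364 of all genes reached it against 673 in the main setting, and 4 without WT mouse 3 (Hmox1, Srxn1, Txnrd1 and Prdx1), where 1938 of all genes reached it. Over all genes 4 were called, 3 to 6 under the alternatives that kept all mice, and 1 to 5 when 1 mouse was left out. Signs turned for 3 members, all near 0, and the cause was not tested. Sod1 was -0.0115 with median-ratio scaling, -0.0096 without mitochondrial genes and -0.0326 with sample quality weights, and ranged from -0.0836 to 0.0489 when mice were left out. Ranges with 1 mouse left out were -0.12 to 0.0498 for Gclm, -0.0838 to 0.0803 for Cat, -0.0943 to 0.0056 for Cul3, -0.0422 to 0.25 for Maff, -0.0441 to 0.14 for Mafg, -0.06 to 0.25 for Mafk and -0.001 to 0.17 for Sqstm1. With the highest row per gene, Gsr was 0.23 and Keap1 -0.0152, while Nfe2l1 was -0.43 from -0.08 (FDR = 0.835) and Slc16a1 2.24 from 0.19 (FDR = 0.835), with their signs kept. Other values kept their sign, 138 of 150 for members and 410 of 419 for the other named genes. Median-ratio scaling gave a median of 0.00 over all genes, from 0.02. No paired analysis was possible because the groups share only the number 3, on different animals. TPM keeps no depth, so counting error could not be set beside low values such as Nqo1.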
